A study of Rattus norvegicus with 23 samples.

Results

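The 24 h stage of the conditioning lesion was measured on 3 of the 23 arrays in the series, those titled as 24 h replicates 1 to 3. On each array, RNA of rat dorsal root ganglia (DRGs) L4 and L5 taken 24 h after the sciatic nerve was cut carried Cy5, and RNA of intact DRGs carried Cy3. A probe was tested where at least 2 of the 3 arrays gave a value, and log2 of the lesioned over intact ratio was compared with 0. Long-Evans rats were operated under isoflurane at postnatal days 20 to 24, and strain, age, cut and removal of the ganglia were shared by all groups, with no drug or genetic change. The other 20 arrays came from the same comparison at 4, 8, 12, 18, 48, 148 and 296 h. The labels state neither the animals that gave the intact RNA nor whether replicates were separate animals, and the spread behind each p-value may therefore be technical. They also call the material cultured cells and speak of cAMP treatment in the labelling text, while the surgical text describes ganglia removed from the animal.

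A DRG neuron sends 1 branch into the peripheral nerve and another into the spinal cord. A cut of the peripheral branch is known to start a transcriptional injury response in the cell body, with factors such as Atf3, neuropeptides, cytoskeletal proteins and stress proteins among its products, and a later cut of the central branch is then followed by more regrowth. The ganglion also holds satellite glia, Schwann cells, vessels, fibroblasts and macrophages. In whole ganglia, fewer cells of a type and less RNA per cell cannot be told apart.

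The 3 arrays of 24 h measured 4960, 4979 and 4991 probes, like the other arrays with few missing values (4945 to 5011 probes on 17 full arrays). The 6 sparse arrays, all at 48 h or later, held 2063 to 4353 probes and had a larger spread. Spearman correlations across probes between the 24 h arrays were 0.301, 0.321 and 0.366, with probes not being independent replicates. The median correlation of 24 h arrays with arrays of 4, 8, 12 and 18 h was 0.273, 0.244, 0.312 and 0.237. With arrays of 48, 148 and 296 h it was 0.266, 0.258 and 0.321. The medians for 12 h and 296 h lay within the range between 24 h replicates, so that range is not read as agreement on a response of that time. The deposited values were ratios, so they gave no level of any transcript, and the presence of neurons or other cells could be checked only by whether their markers changed. Ratios are given as log2, lesioned over intact, with the SD over 3 arrays unless stated. The direction of the ratio is taken from the dyes in the labels.

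At 24 h, the injury transcription factor Atf3, the stress gene Gadd45a and the neuropeptide precursor Vgf stood well above intact ganglia on every array. Neurofilament heavy chain (Nefh) and the stathmin Stmn4 were higher by a smaller factor. In all, 71 of 5011 probes (1.42%) passed an adjusted p of 0.05 in limma's moderated test, 34 higher (0.679%) and 37 lower (0.738%) in lesioned ganglia. Of the 71, 65 carried 1 gene symbol. Of the 69 measured on all 3 arrays, 68 had the same sign on the 3, against 43.8% of all probes. They were called on these same values, so nothing is read from that difference. At an unadjusted p under 0.05 there were 673 (13.4%). With arrays weighted by their estimated precision, 310 probes passed (6.19%), 114 higher (2.27%) and 196 lower (3.91%), and they included all 71. Leaving out replicate 1, 2 or 3 of 24 h left 13, 26 or 33 probes past the threshold. Of the 65 named probes, 11 passed whichever array was left out: those of Atf3, Gadd45a, Bmp6, Tmprss11d, Dlgap2, Vgf (1D09), Atf4 (52H08), Rps6kb1 (52F12), Vegfd (52H11), Vegfa (52C12) and Ccnd1 (53G02). Calls of the other 54 were lost without at least 1 of the 3 arrays, and 3 probes passed when the 24 h arrays were fitted alone, those of Amotl2, Vegfa and Ccnd1, all lower. By position codes, the Amotl2 probe was on plate 36, and those of Atf4, Rps6kb1, Vegfd, Vegfa and Ccnd1 on plates 52 and 53, treated below. For each of these genes on plates 52 and 53, another probe on a different plate did not pass.

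Atf3 is an injury-induced transcription factor of the ATF/CREB family. Its log2 ratios on replicates 1, 2 and 3 were 2.67, 1.73 and 2.43. The mean of 2.28 ± 0.49 was a 4.85-fold excess (adjusted p = 0.00023). All 3 arrays lay far above 0. The means at 4, 8, 12 and 18 h were 0.52, 1.38, 1.55 and 2.61, so the ratio at 24 h lay within the range already reached at 18 h. At 48 h and 296 h, with 1 measured array each, Atf3 stood at 3.70 and 1.97.

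Gadd45a, which takes part in growth arrest and in the response to DNA damage, was at 1.69, 2.64 and 2.41 on the 3 arrays. Its mean was 2.25 ± 0.50, or 4.75-fold (adjusted p = 0.000796). It went from -0.09 at 4 h through 0.26, 1.17 and 1.88 to its highest mean at 24 h, and then stood at 1.27, 0.98 and 0.74 at 48, 148 and 296 h. Atf4, the transcription factor of the integrated stress response, read 1.42, 0.84 and 1.13 on probe 52H08. The mean was 1.13 ± 0.29 (2.19-fold, adjusted p = 0.000697), and every 24 h array was above every array of 4 to 18 h, whose highest value was 0.55. A second Atf4 probe, 7D01, averaged -0.26 at 24 h and did not pass (adjusted p = 0.74).

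**Figure D1:**
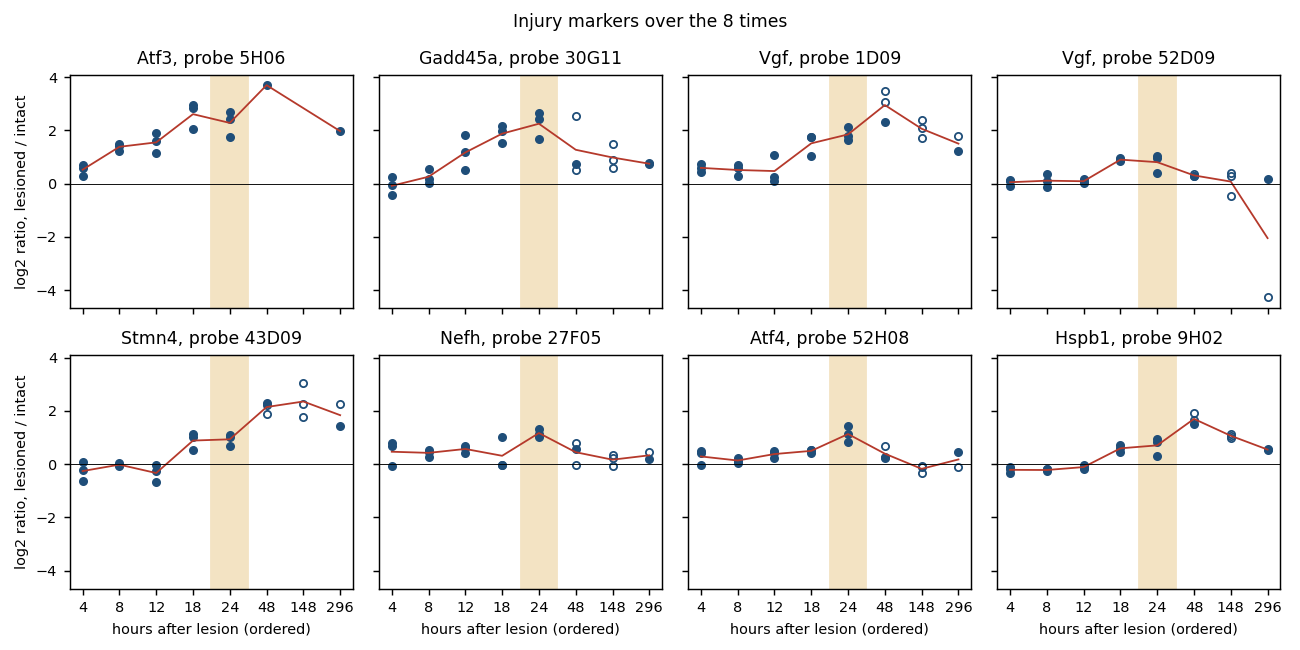
Log2 ratios of lesioned over intact ganglia (y axis) at the 8 times (x axis, hours, evenly spaced) for 8 probes of injury markers. Points are arrays, filled for full and open for sparse arrays, the line joins the means and the band marks 24 h. Atf3, Vgf probe 1D09, Stmn4 and Hspb1 stood higher at 48 h than at 24 h, while Gadd45a, Nefh and Atf4 had their highest mean at 24 h.

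Vgf encodes the precursor of several secreted peptides of neurons. Probe 1D09 read 2.13, 1.64 and 1.77 (mean 1.85 ± 0.25, 3.60-fold, adjusted p = 0.00023). The 3 values lay close together, and the means at 4, 8 and 12 h had been 0.59, 0.51 and 0.47. Probe 52D09 of the same gene read 0.95, 1.05 and 0.41, with a mean of 0.80 that did not pass (adjusted p = 0.50). The 2 probes thus had the same direction and differed in size. The promoter of Vgf is shown because it holds the letters TGACGTCA of the cAMP response element, the site of CREB and ATF factors, at -90 from the gene start. It is the RefSeq promoter on GRCr8, chr12:25276971-25277270, minus strand, from 250 bases before to 50 after the start, with the element in capitals.
Vgf promoter: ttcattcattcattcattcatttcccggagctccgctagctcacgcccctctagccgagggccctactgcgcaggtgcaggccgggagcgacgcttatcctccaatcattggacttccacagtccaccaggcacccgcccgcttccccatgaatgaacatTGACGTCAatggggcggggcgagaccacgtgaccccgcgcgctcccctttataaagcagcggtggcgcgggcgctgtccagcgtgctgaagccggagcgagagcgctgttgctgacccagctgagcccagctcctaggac
On either strand these letters occurred in 1.91% of 27457 rat promoters of this length. Among genes called at 24 h they were found in 1 of 24 promoters of higher genes, that of Vgf, and in 1 of 26 of lower genes, that of the coactivator gene Ppargc1a. Atf3, Stmn4 and Nefh had no promoter in the table used.

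Stress proteins gave a mixed picture. Both probes of Hspb1, the small heat shock protein Hsp27, were higher: probe 52D12 read 0.86, 0.74 and 1.20 (mean 0.93 ± 0.24, adjusted p = 0.0161), and probe 9H02 read 0.85, 0.96 and 0.31 (mean 0.70 ± 0.35, adjusted p = 0.0155). Probe 9H02 had stood at -0.22, -0.22 and -0.11 at 4, 8 and 12 h and at 0.59 at 18 h. No other gene of 16 heat shock and chaperone genes passed, and the median of that list was -0.17, with Calr at -1.37 and Hspa9 at -0.93. With array weights 3 members were lower, Calr, Hsp90ab1 (-0.68) and Hspa1a (-0.64), and Hspb1 alone was higher. Metallothionein Mt1, a metal-binding stress protein, had a probe that passed and 2 that did not. Probe 22G06 read 1.03, 1.55 and 0.79 (mean 1.12 ± 0.39, adjusted p = 0.0284), while probes 52F03 and 52G03 averaged 0.49 and -0.10. When the 3 probes were averaged, Mt1 was at 0.51 and no longer passed. The promoter of Mt1 is shown because it holds the letters TGCNCNCGG, searched here for the metal response element, at -133 and -55. Other forms of the element were not searched or marked (GRCr8, chr19:10832926-10833225, minus strand, matches in capitals).
Mt1 promoter: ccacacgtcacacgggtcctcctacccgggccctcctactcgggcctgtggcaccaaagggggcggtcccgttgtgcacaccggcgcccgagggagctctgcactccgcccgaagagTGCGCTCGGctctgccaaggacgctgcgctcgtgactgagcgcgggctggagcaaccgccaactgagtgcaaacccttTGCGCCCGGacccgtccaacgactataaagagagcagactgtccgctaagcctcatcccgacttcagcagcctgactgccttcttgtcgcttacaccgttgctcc
This motif was in 4.16% of all promoters, in 2 of the 24 of higher genes (Mt1 and Bsg) and in 1 of the 26 of lower genes (Prkacb). The heat shock element, searched as its inverted core triplets, was in none of these promoters and in 0.736% of all, and TGATGNAA, a C/EBP-ATF element, was in the promoter of Klrc2 and in 3.82% of all.

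Of 32 regeneration-associated genes, 6 rose at 24 h, beside 0.679% of all probes, and none fell, beside 0.738%. The 6 were Atf3, Gadd45a, Vgf, Mt1, Hspb1 and Stmn4. With array weights 8 were higher, Gap43 and Cacna2d1 in addition, and 1 was lower, Sprr1a. The median of the list was 0.20 and 23 of 32 lay above 0, while all tested probes had a median of 0.02. The list was written with results of these samples known, and is not independent evidence of its direction. Members that did not pass with equal weights included Cacna2d1, a calcium channel subunit, at 1.25, the transcription factor Sox11 at 0.90 and Gap43, a growth cone protein, at 0.60. Several genes known for strong induction by nerve injury did not pass, with Npy at 0.28, galanin (Gal) at 0.32 and Vip at 0.24. Sprr1a was at -0.85 and Arg1 at -0.46, and neither passed with equal weights. Of 19 stress and immediate early genes, 3 rose, beside 0.679% of all probes, and none fell, beside 0.738%. These were Atf3, Gadd45a and Atf4, the last on probe 52H08 and not on 7D01. The list median was 0.33, and array weights added Nr4a1 as lower (-0.80). The 12 gp130 cytokine and receptor genes had none past the threshold in limma, with or without array weights, beside 6.19% and 1.42% of all probes. Under an unadjusted p of 0.05 there was 1, beside 13.4% of all probes. Their median was -0.05, with Lif at 0.31, Socs3 at 0.16, Il6 at -0.13, Stat3 at -0.38 and Cntfr at -1.17.

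Cytoskeletal genes moved in both directions. Nefh, which sets the calibre of large axons, read 1.02, 1.33 and 1.15 on the 3 arrays (mean 1.17 ± 0.15, 2.24-fold, adjusted p = 0.00884). All 3 arrays lay above the 12 arrays of 4 to 18 h, of which the highest was 1.004. The other neurofilament subunits did not pass, with Nefm at 0.34 and Nefl at 0.19. Stmn4, a stathmin that binds tubulin, read 1.09, 1.01 and 0.68 (mean 0.93 ± 0.22, 1.91-fold, adjusted p = 0.0441). It had been at -0.26, -0.02 and -0.34 at 4, 8 and 12 h and at 0.88 at 18 h, so the 24 h arrays overlapped those of 18 h. With any 1 of the 24 h arrays left out, neither gene passed (adjusted p from 0.0562 to 0.0744 for Nefh and from 0.107 to 0.286 for Stmn4). Map1a, a microtubule-associated protein, rose to 0.95 ± 0.12. Of 23 neurofilament and microtubule genes these 3 rose, beside 0.679% of all probes, and none fell, beside 0.738%. With array weights 3 were higher and 2 lower, beside 2.27% and 3.91% of all probes. The median of the list was 0.19, and Stmn1 at -1.15 and Dpysl2 at -1.04 were the lowest members. Outside that list, the dynein heavy chain Dync1h1 was higher (1.07 ± 0.55) and the dynein intermediate chain Dync1i2 lower. Dync1i2 read -1.03, -1.17 and -1.39 (mean -1.20 ± 0.18, adjusted p = 0.0155), below all 12 earlier arrays. Thymosin Tmsb10, which sequesters actin monomers, fell by 0.68 ± 0.38.

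**Figure D2:**
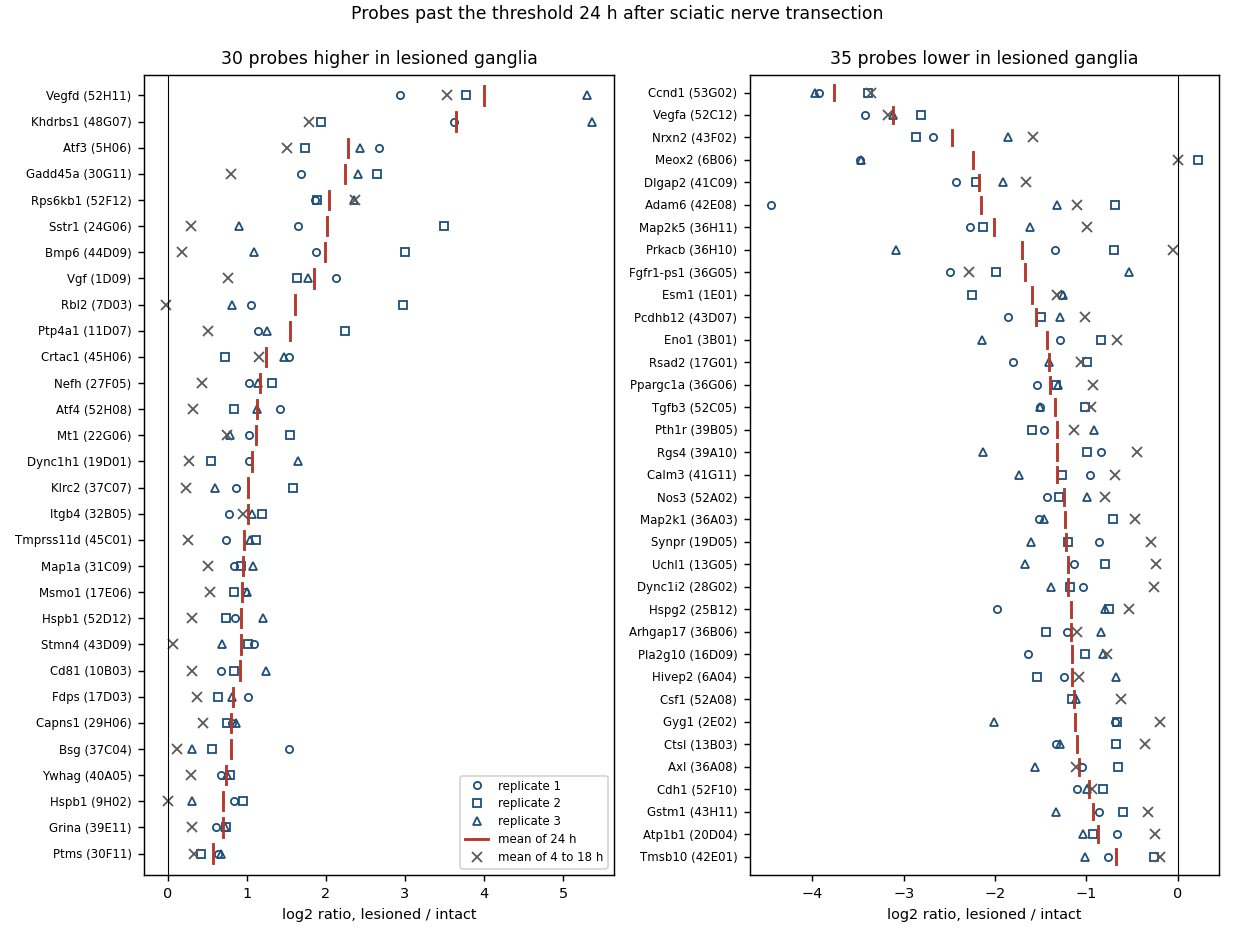
Log2 ratio of lesioned over intact (x axis) of the 65 probes with 1 gene symbol that passed the threshold at 24 h (y axis, gene and probe), 30 higher on the left and 35 lower on the right. Symbols are the 3 arrays, bars their mean and crosses the mean of 4 to 18 h. Crosses lie near the bar for Ccnd1 and Vegfa and near 0 for Stmn4, Bmp6, Rbl2, Prkacb and Meox2, and Meox2 has 1 array at 0.22 against 2 near -3.48 and -3.47.

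Cholesterol synthesis genes had 2 of 14 members higher, beside 0.679% of all probes, none lower and a median of 0.27. Fdps, which makes farnesyl diphosphate, read 1.02, 0.63 and 0.81 (mean 0.82 ± 0.19, adjusted p = 0.00609), and Msmo1, a sterol oxidase, read 0.98, 0.84 and 1.01 (mean 0.94 ± 0.09, adjusted p = 0.0171). Both had little spread between arrays. Sqle at 0.83 and Hsd17b7 at 0.54 did not pass, and Insig1, which holds the pathway back, was at -0.66. Fdps went down again later: the mean of 48 to 296 h was 0.78 ± 0.17 (SE) below 24 h (adjusted p = 0.0414, and 0.0977 with array weights).

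Among secreted and receptor genes, Bmp6, a ligand of the bone morphogenetic protein family, stood out in time. It read 1.87, 3.00 and 1.09 at 24 h (mean 1.99 ± 0.96, 3.97-fold, adjusted p = 0.000796). At 4, 8, 12, 18 and 48 h its means were 0.27, 0.11, 0.30, 0.04 and -0.04, and the highest earlier array stood at 0.43. The difference from 4 to 18 h was 1.81 ± 0.29 (SE), with an adjusted p of 0.083, and of 0.0226 with array weights. The somatostatin receptor Sstr1 read 1.65, 3.50 and 0.90 (mean 2.02 ± 1.34, adjusted p = 0.0156). Its arrays spread widely, the lowest overlapped earlier arrays that reached 1.09, and without replicate 1 or 2 the call was lost (adjusted p = 0.085 and 0.0959). Ptp4a1, a phosphatase of regenerating liver, rose to 1.54 ± 0.61, after means of 0.20, 0.27, 0.60 and 0.98 at 4 to 18 h.

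Of 39 G protein and cAMP signalling genes, Prkacb and Rgs4 passed, both lower, beside 0.738% of all probes, and with array weights 3 were lower and none higher. The list had a median of -0.18 with 10 of 39 above 0. Prkacb, a catalytic subunit of protein kinase A, read -1.35, -0.70 and -3.09 (mean -1.71 ± 1.24, adjusted p = 0.0156). The 3 values had a wide spread, and all other times had means between -0.39 and 0.23. Rgs4, which speeds GTP hydrolysis by G alpha subunits, read -0.84, -1.0 and -2.13 (mean -1.32 ± 0.70, adjusted p = 0.0443). Outside that list, Map2k1 and Map2k5, kinases that activate MAP kinases, averaged -1.23 ± 0.45 and -2.01 ± 0.34, and the calmodulin gene Calm3 -1.32 ± 0.39 on 1 of its 2 probes. The probes of Prkacb, Map2k1 and Map2k5 were all on plate 36, by their position codes, and plates 36, 52 and 53 held an excess of called probes (8.54% against 1.05% elsewhere). These plates were taken as a group, and shares of other single plates were not compared. The part of the plate in these ratios was not tested.

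Of 28 genes of synaptic vesicles and adhesion, 1 passed, the neurexin Nrxn2, which was lower (-2.47 ± 0.54), beside 0.738% of all probes. The list had a median of -0.13, and with array weights 4 were lower and none higher. The next genes named lay outside that list. Atp1b1, a subunit of the sodium pump, read -0.67, -0.92 and -1.03 (mean -0.87 ± 0.19, 1.83-fold lower, adjusted p = 0.00573). All 3 arrays were below the 12 earlier ones, of which the lowest was -0.48. The synaptic vesicle protein Synpr read -0.86, -1.20 and -1.61 (mean -1.22 ± 0.37, adjusted p = 0.0284). Dlgap2, a postsynaptic scaffold, was at -2.43, -2.21 and -1.91 (mean -2.18 ± 0.26, adjusted p = 0.000529). Its means at 4 to 18 h lay between -1.42 and -1.87, and those of 48 to 296 h between -2.15 and -2.64. Uchl1, a neuronal ubiquitin hydrolase, read -1.14, -0.79 and -1.68 (mean -1.20 ± 0.45, adjusted p = 0.0281). Among 11 pan-neuronal genes Nefh rose and Uchl1 fell, beside 0.679% and 0.738% of all probes. With array weights 2 were higher and 2 lower, beside 2.27% and 3.91%. Under an unadjusted p of 0.05 there were 8, beside 13.4% of all probes. Snap25 at -0.87 and Eno2 at -0.38 did not pass with equal weights. The list as a whole had a median of 0.19, with 6 of 11 above 0.

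Among the listed markers of other cell types, 1 gene passed at 24 h, Nos3 of the endothelium. In limma none passed in either direction among 10 macrophage, 15 lymphocyte and neutrophil, 12 myelinating Schwann cell, 8 satellite glia, 18 fibroblast and matrix, 11 skeletal muscle and 6 red blood cell genes, and the medians of these lists lay between -0.04 and 0.14. None of these 80 genes thus passed, beside 1.42% of all probes, and 11 were under an unadjusted p of 0.05 (13.4% of all probes). With array weights 6 passed (6.19% of all probes). The Schwann cell genes Prx (0.74) and Pmp22 (0.48) and the intermediate filament gene Vim (0.58) were higher, and Glul (-0.76), Timp2 (-0.87) and the muscle gene Ckm (-0.97) lower. The macrophage gene C1qb was at 0.85, and Lyz2, Cd14 and Itgam were between -0.34 and -0.27. Of 12 endothelial and smooth muscle genes, Nos3 on probe 52A02 was lower (-1.24 ± 0.22, adjusted p = 0.0441), while its other 3 probes averaged 0.72, 0.13 and 0.23. Outside the lists, Esm1 (endothelial cell-specific molecule 1) read -1.28, -2.25 and -1.26 (mean -1.60 ± 0.57, adjusted p = 0.0441). Its mean over 4 to 18 h was -1.32, and it did not pass with any 1 of the 24 h arrays left out. The part of any change in cell number in the ratios above was not tested. Nociceptor genes (16), voltage-gated channels (42), trophic factors and receptors (20), oxidative phosphorylation genes (30) and cytoplasmic ribosomal proteins (64) had no member past the threshold either, beside 1.42% of all probes. Those under an unadjusted 0.05 numbered 4, 8, 2, 4 and 9, beside 13.4% of all probes, and the medians were 0.16, 0.13, 0.00, 0.02 and -0.06. With array weights 3 entries of these lists were higher and 12 lower (2.27% and 3.91% of all probes), with the sodium channel Scn11a counted in the nociceptor and the channel list, and they included 2 channel genes higher and 4 lower, and 5 ribosomal protein genes lower. Of 13 injury-associated neuropeptide genes, Vgf alone passed, beside 1.42% of all probes, and Cck was lowest at -0.90. Of 9 genes discussed in the text of the study, 3 rose (Atf3, Vgf and Mt1, the last on probe 22G06 only), beside 0.679% of all probes, and none fell. The median of these 9 was -0.003, with 4 above 0, and with array weights 4 were higher and 1 lower. Genes followed up in the study were taken in part from the lesion arrays, so these counts are not independent evidence.

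**Figure D3:**
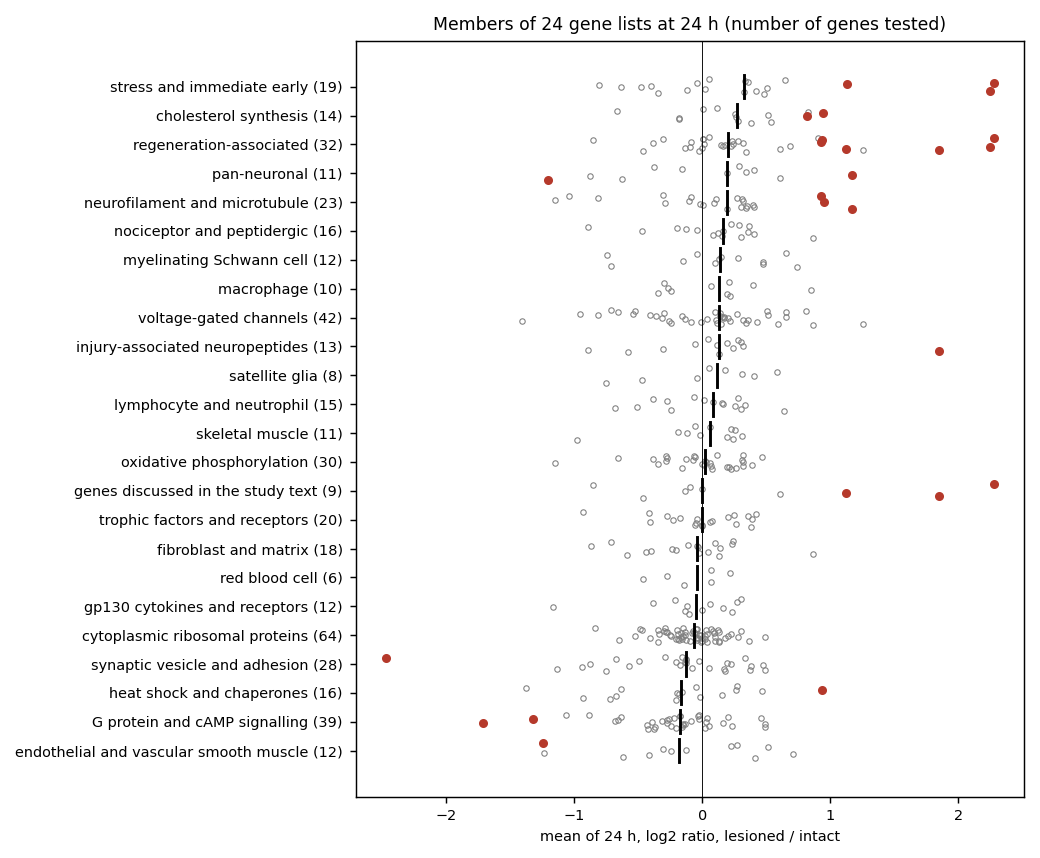
Mean log2 ratio at 24 h (x axis) of the members of 24 gene lists (y axis, number of genes tested), 1 probe a gene. Filled points passed the threshold, open points did not, and bars are list medians. Medians lie between -0.18 and 0.33, and the regeneration list has 6 filled points, the stress and cytoskeleton lists 3 each and the cholesterol list 2.

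The next question was whether ratios at 24 h belonged to that time. The difference between 24 h and the mean of the other 7 times passed for 0 of 4229 probes in limma (0%), with 228 (5.39%) at an unadjusted p under 0.05. With array weights 5 passed (0.118%): Gadd45a, Atf4, Hao2 and the unnamed probe 53A04 were higher at 24 h, and Npy was lower. Against 4 to 18 h alone, 0 of 4990 passed (0%) and 194 (3.89%) were under an unadjusted 0.05. Array weights gave 6 (0.120%), with Gadd45a, Atf4, Bmp6, Hao2 and the serine protease gene Tmprss11d higher and Atp1b1 lower. Gadd45a exceeded the other 7 times by 1.36 ± 0.34 (SE, adjusted p = 0.49), or by 1.46 ± 0.27 with array weights (adjusted p = 0.0401). Atf4 probe 52H08 exceeded them by 0.89 ± 0.17 (SE, adjusted p = 0.11), or by 0.83 ± 0.15 with array weights (adjusted p = 0.0401). For Nefh the difference was 0.78 ± 0.23 (SE, adjusted p = 0.68) and for Vgf probe 1D09 0.48 ± 0.25 (SE, adjusted p = 0.90), and array weights did not take either past the threshold.

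The same probes stood apart on arrays of other times. Of 65 called probes measured at all times, the mean of the other 7 times had the same sign in 65. For the sign alone, no share over all probes was taken. That mean passed the threshold in 60, beside 1333 of 4229 probes (31.5%) in all. Both tests used the same estimate of spread for a probe, so passing one is not independent of passing the other. In 48 of the 65 (73.8%) every one of the 7 other means had the sign of 24 h, against 17.5% of all probes. The 5 that did not pass at the other times were Sstr1, Bsg, Prkacb, Gyg1 and Meox2. The remaining 6 called probes, among them Atf3, Bmp6, Khdrbs1, Rbl2 and Klrc2, could not be tested because a later time had no value. These comparisons used the same probes and dye orientation throughout, so where a ratio was equal at all times, a lasting effect of the lesion and a dye effect of the probe cannot be told apart.

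**Figure D4:**
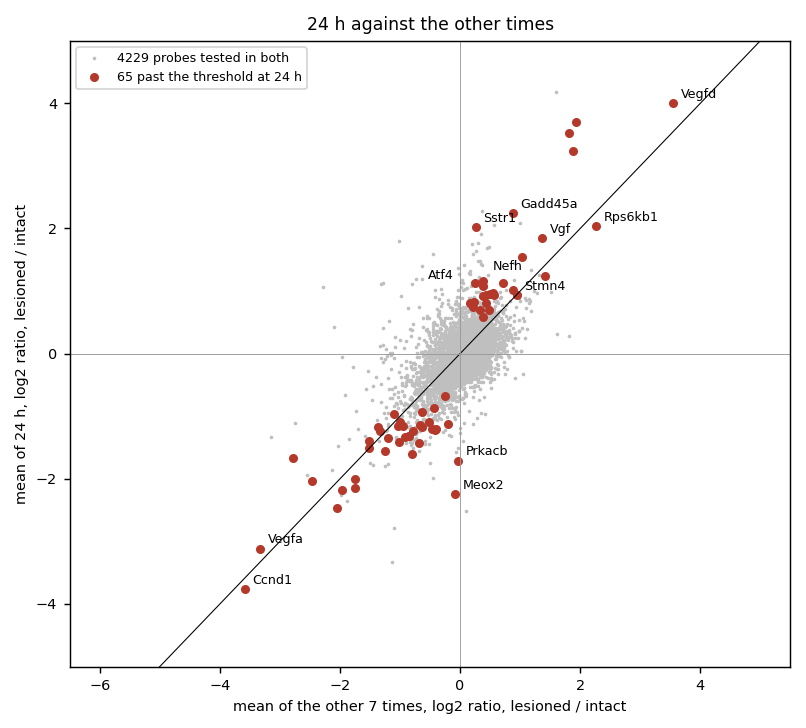
Mean log2 ratio at 24 h (y axis) against the mean of the other 7 times (x axis) for 4229 probes. The 65 larger points passed the threshold at 24 h and the diagonal marks equal ratios. Ccnd1, Vegfa, Vegfd and Rps6kb1 lie close to the diagonal, Gadd45a and Sstr1 above it and Prkacb and Meox2 below it.

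A finer division, chosen after the values were seen, set the mean of 4 to 18 h against that of 24 h. In 34 of the 71 probes the earlier mean was at least 0.5 of the log2 ratio at 24 h, in 23 it was between 0.25 and 0.5, and in 14 it was at most 0.25. The first set included 22 of the 37 lower probes and 12 of the 34 higher ones. At its extreme, probe 53G02 of the cell cycle gene Ccnd1 read -3.92, -3.39 and -3.97 at 24 h (13.6-fold lower), and its 7 other means lay between -3.24 and -4.17. Probe 52C12 of the vascular growth factor Vegfa (-3.12 ± 0.31), probe 52H11 of Vegfd (4.00 ± 1.20) and probe 52F12 of the ribosomal S6 kinase gene Rps6kb1 (2.04 ± 0.28) were likewise far from 0 from 4 h on, with means at 4 h of -2.29, 2.98 and 1.94. The last set included Stmn4, Hspb1 probe 9H02, Bmp6, Sstr1, Bsg, Rbl2 and Klrc2 on the higher side and Synpr, Uchl1, Dync1i2, Prkacb, Gyg1 and Meox2 on the lower side. Gadd45a, Atf4, Nefh and Vgf lay between, and Atf3, with 1.51 over 4 to 18 h, was in the first set.

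On 63 called probes measured on all 15 arrays up to 24 h, the 24 h arrays lay wholly outside the 12 earlier ones in 11. These were 9 of 29 higher probes (Nefh, Atf4, Bmp6, Cd81, Capns1, Bsg, Ywhag, Rbl2 and the unnamed 3E12) and 2 of 34 lower ones (Atp1b1 and Dync1i2). Over 4542 probes the corresponding shares were 0.528% and 0.242%. The called probes had been picked on the same 24 h values, so nothing is read from the excess. Cd81, a tetraspanin, and Ywhag, a 14-3-3 protein, showed small and even ratios, 0.92 ± 0.29 and 0.74 ± 0.06.

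Probes of the same gene disagreed for several called genes. For 12 genes, 1 probe passed at 24 h and 15 others did not, and 10 of these 15 had the opposite sign, counting Calm3 at 0.003. The share over all 191 genes with 2 or more probes was not taken, so 10 of 15 cannot be set against it. Ccnd1 was at -3.76 on probe 53G02 and at 0.32 on 30F03. Vegfa was at -3.12 on 52C12 and -0.16 on 25C10, and Vegfd at 4.00 on 52H11 and -0.10 on 29H11. Rps6kb1 was at 2.04 on 52F12 and -0.22 on 34G05, and Calm3 and the cadherin Cdh1 at -1.32 and -0.97 against 0.00 and 0.24. In contrast, both Hspb1 probes passed, and the protocadherin Pcdhb12 had means of -1.55 and -1.36. Of the 12 passing probes, 7 came from plates 52 and 53, by their position codes. Plates 36, 52 and 53 together held 21 of the 71 called probes, 8.54% of their 246 probes, against 50 of 4765 (1.05%) elsewhere. In 15 of these 21 the mean of 4 to 18 h was at least 0.5 of the ratio at 24 h. Other plates were not compared one by one. No probe sequence was at hand, so which probe of a gene measured its transcript was not tested.

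**Figure D5:**
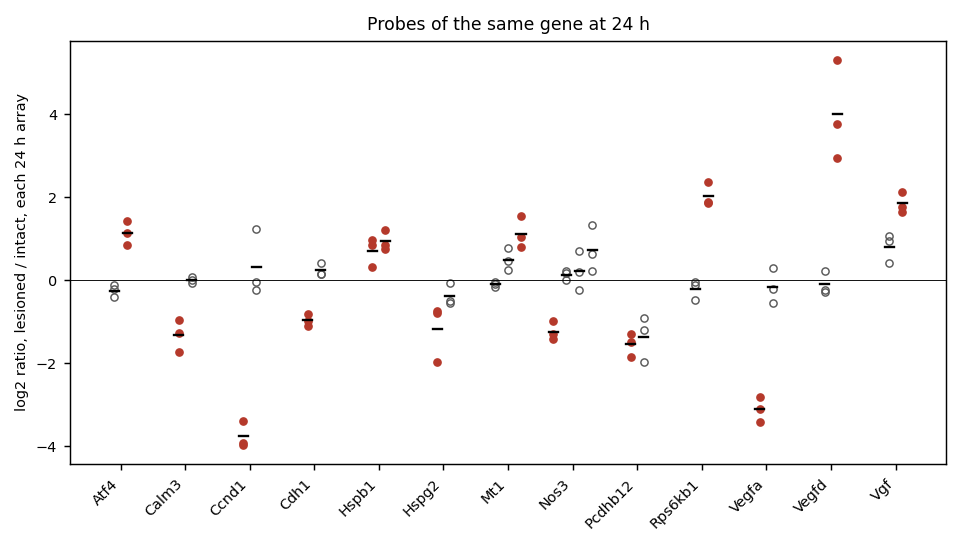
Log2 ratio of lesioned over intact on each 24 h array (y axis) for the 13 genes with a called probe and another probe (x axis). Each column of 3 points is a probe, filled where it passed the threshold, and the bar is its mean. Hspb1 has 2 filled columns, while Ccnd1, Vegfa and Vegfd have a filled column far from 0 beside an open one near 0.

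Finally, later times were set against 24 h. The mean of 48, 148 and 296 h differed for 45 of 4244 probes (1.06%), 27 higher (0.636%) and 18 lower (0.424%) later, and for 15 (0.353%) with array weights. Neuropeptide Y (Npy) read 0.45, 0.21 and 0.18 at 24 h and stood 4.11 ± 0.43 (SE) higher later (adjusted p = 0.000153). Galanin read 0.51, 0.33 and 0.11, with a later mean higher by 3.53 ± 0.38 (SE, adjusted p = 0.000187). At 24 h both neuropeptides were thus above 0 on every array, by at most 0.51. The protease inhibitor Timp1 (-0.04 at 24 h, later higher by 1.62) and the cell cycle inhibitor Cdkn1a (-0.18, by 1.59) had the same course, with and without array weights, and are named here after their values were seen. Stmn4 rose further, by 1.18 ± 0.26 (SE, adjusted p = 0.0435, and 0.0529 with array weights). Atf4 probe 52H08 moved the other way, and the later mean fell by 1.0 ± 0.18 (SE) (adjusted p = 0.0168, and 0.0493 with array weights). Of the 65 called probes, 6 passed in this comparison: Stmn4, Atf4, Fdps, Prkacb, Map2k1 and Fgfr1-ps1. Of the later arrays, 6 were sparse, and all of 148 h were.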

How the data were processed

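The authors deposited a linear ratio of the 2 channels for each probe of an array. No array exchanged the dyes, and scanner software, background correction and normalization are not given in the sources used here. Without intensities the signal over background of a probe is not known, and precision is limited by the number of arrays. Array medians lay between 1.002 and 1.061. Ratios were converted to log2 without an offset.

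One mean per time was fitted over all 23 arrays with limma 3.58.1 in R 4.3.3, so that a standard error (SE) uses the spread of all times. Single time means needed 2 arrays at 24 h, and contrasts also 1 array at every other time in them. Tests were two-sided with Benjamini-Hochberg adjustment over all probes and a threshold of 0.05. Of 5088 probes, 4423 carried 1 symbol, 2 several and 663 none, by the platform annotation. Sequences are RefSeq promoters on GRCr8, matched by Entrez gene identifier for 24 higher and 26 lower genes. The fit was tested on simulated data.

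The arrays, gene lists and tests were chosen with earlier results of these data known. Named were all probes of the 5 marker genes, probes with a symbol past the threshold at 24 h, the 8 highest and 8 lowest in each contrast, list members past the threshold, chosen members of the regeneration, neuropeptide, nociceptor, gp130 and study lists, and other probes of a named gene. Extreme members of the other lists, and calls made only with array weights, were named after their values were seen. The gene lists used 1 probe a gene, that on most arrays. Alternatives were array weights, centring, scaling, stricter filters, full arrays only (under 200 missing probes), robust variance, gene means, a replicate block, and leaving out plates or arrays.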

Additional observations from a re-analysis of the deposited data

Results flagged for a closer look

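In 48 to 296 h minus 24 h, 20 probes differed between times by the test of the difference itself: among probes with 1 gene symbol, the 8 with the greatest rise and the 8 with the greatest drop, and 4 more of genes named above. Unnamed probes, some of which passed with greater changes, are not included. Differences (log2, later minus 24 h) were 4.11 for Npy, 3.53 for Gal, 2.76 for Naa35, 1.93 for Nxph1, 1.91 for Mx2, 1.86 for Ptbp2, 1.78 for Cd46, 1.70 for Prkacb and 1.18 for Stmn4 on the higher side. On the lower side they were -4.16 for Acsm2, -2.09 for Chn1, -2.03 for Ass1, -1.89 for Ntn1, -1.78 for Fgfr1-ps1, -1.77 for Pak3, -1.63 for Or9s23, -1.25 for Map2k1, -1.0 for Atf4 probe 52H08, -0.78 for Fdps and -0.73 for Mt1 probe 52G03. With array weights, Npy, Gal, Naa35, Nxph1, Ptbp2, Cd46, Ass1 and Atf4 stayed past the threshold. A later time needed only 1 array, and Pak3 had 1 at each, at -0.92, -3.17 and 0.24 at 48, 148 and 296 h. The strict filter on missing values could test 8 of the 16 probes with the greatest rise or drop, and 5 of these passed.

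At 24 h itself 6 of the 20 had passed as well, those of Prkacb, Fgfr1-ps1, Map2k1, Stmn4, Atf4 and Fdps. Of those that had not, Chn1 stood at -1.47, Acsm2 at 1.40, Or9s23 at 0.60 and Pak3 at 0.49. The mean of Acsm2 came from arrays at -0.09, 3.92 and 0.36. Npy averaged 0.28 ± 0.15, Gal 0.32 ± 0.20 and Ptbp2, a splicing regulator of neurons, 0.39 ± 0.07, and each was above 0 on all 3 arrays without passing at 24 h. Npy then stood at 2.81, 5.70 and 4.66 at 48, 148 and 296 h, Gal at 4.55, 4.98 and 2.00, and Ptbp2 at 2.28, 3.46 and 1.0. Nxph1, a ligand of neurexins, was at 0.32, 5.93 and 0.26, with its high value at 148 h, where all arrays were sparse. Mx2, an interferon-induced gene, was at 0.93, 4.95 and 0.13.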

How the results depend on the processing

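Of the 71 probes past the threshold at 24 h, counts became 310 with array weights, 217 with scaling, 241 with full arrays only, 36 without plates 36, 52 and 53, 13 to 33 without 1 of the 24 h arrays and 3 with these arrays alone (737 at an unadjusted p under 0.05). The share of higher probes was 47.9% at first, 36.8% with weights, 35.0% with scaling, 33.6% on full arrays, 61.1% without the plates and 50% to 69.2% without 1 array. No other setting moved the count by over 1.5 times: centring gave 73, the strict filter 69, robust variance 70, gene means 62 and the replicate block 69. No named ratio at 24 h reversed under any of these settings, and 9 of 65 kept their call under every one that could test them except the 24 h arrays alone: Atf3, Gadd45a, Vgf, Bmp6, Tmprss11d, Dlgap2, Vegfa, Vegfd and Ccnd1. The called probes of Vegfa, Vegfd and Ccnd1 could not be tested without plates 36, 52 and 53. Gene means took Mt1 (0.51), Atf4 (0.44), Rps6kb1 (0.91), Nos3 (-0.04), Cdh1 (-0.37) and Hspg2 (-0.77) below the threshold, and also Ptms and Tmsb10, each with 1 probe.

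Against the other 7 times, 0 became 5 with weights and 0 to 1 without 1 array, and against 4 to 18 h, 6 and 0 to 1. For later times minus 24 h, 45 became 15 with weights, 5 with scaling, 14 with the strict filter, 22 on full arrays, 29 with robust variance, 27 with gene means, 21 with the replicate block, 23 without the plates and 7 to 17 without 1 array. Stmn4 was -0.01 in 24 h minus the other 7 times and turned to 0.43 with scaling, 0.27 on full arrays and -0.093 to 0.11 without 1 array, none past the threshold. The causes were not tested. Residuals of arrays with the same replicate number correlated between -0.141 and 0.117 (4 of 77 pairs over 0.1). Those with different numbers correlated between -0.141 and 0.197 (7 of 154 pairs over 0.1). Whether a shared number marks a shared animal or batch was not tested.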
